A study of Arabidopsis thaliana with 6 samples.

Results

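The D-type cyclins of Arabidopsis thaliana are 10 of the 32833 genes in the count table, and they were taken by their locus identifiers, from CYCD1;1 (AT1G70210) to CYCD7;1 (AT5G02110). All 10 passed the filter on low counts, as did 25364 genes in total. The RNA came from protoplasts, which are cells freed of their walls, of root tips of seedlings 7 days old. The plants were of a Col0 line that carried H2B-RFP, a fluorescent histone, and CDT1a-GFP, a fluorescent replication licensing factor, and all 3 groups share this genotype. Cells were sorted by DNA content, and each gate has 2 libraries: the G1 gate at 2n, the S gate above 2n and below 4n, and the G2M gate at 4n. The labels do not say whether the 2 libraries of a gate came from separate plants, so p-values measure the spread between libraries, which may be technical. A gate on DNA content holds cells that divide beside cells that have left the cycle at the same DNA content.

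D-type cyclins are the regulatory subunits that switch on the cyclin-dependent kinase CDKA at the start of the cell cycle. The kinase then phosphorylates the retinoblastoma protein RBR1, which frees E2F transcription factors to turn on genes for DNA replication. Plant D-type cyclins respond to sugar, cytokinin and auxin, and in roots they set how fast meristem cells divide and where lateral roots and tissue layers form. Most carry near their start a short motif, LxCxE, by which they dock on RBR1.

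The motif was sought in the coding sequences of RefSeq on build TAIR10.1, since it marks the members that can dock on RBR1 in this way and divides the family. It was found in 7 of 10 members, once in each, and the longest protein of each gene was used. No match was found in CYCD4;2, CYCD5;1 and CYCD6;1, which says only that these letters are not in those proteins. The 3 CYCD3 genes, CYCD2;1 and CYCD4;1 are shown, 33 bases each, with the 5 codons of the motif in capitals.
CYCD3;1: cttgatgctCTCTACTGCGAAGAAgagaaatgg
CYCD3;2: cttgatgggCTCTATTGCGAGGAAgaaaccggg
CYCD3;3: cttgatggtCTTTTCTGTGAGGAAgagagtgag
CYCD2;1: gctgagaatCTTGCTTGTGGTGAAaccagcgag
CYCD4;1: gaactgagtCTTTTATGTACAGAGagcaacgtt
They lie, in the order shown, at chr4:16357957-16357989 (plus strand), chr5:26836364-26836396 (plus strand), chr3:18566589-18566621 (minus strand), chr2:9555838-9555870 (minus strand) and chr5:26143700-26143732 (minus strand). The motif starts at codon 22, 21, 20, 5 and 10 of these genes. By protein identity over aligned positions the closest pairs were the 2 CYCD4 proteins with 72.5% and CYCD3;2 with CYCD3;3, at 71.6%. CYCD3;1 shared 51.7% with the former and 47.6% with the latter. The lowest identity in the family was 22.6%, between AT4G03270 and AT5G02110.

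Total counts ran from 13114711 in S replicate 2 to 208406910 in S replicate 1. At those depths 3 counts, the limit that a count of 0 allows, were worth 0.229 and 0.0144 CPM (counts scaled to library size), which covers counting error only. The 4 regulators of the root stem cell niche had their lowest sums in the G1 libraries, at 88.1 and 82.7 CPM. The S libraries reached 117 and 142 CPM, and those of G2M 129 and 116 CPM. Of these genes PLT2 and BBM were higher than in G1 at both later gates (edgeR adjusted p below 0.05), where 13.9% and 23.2% of all genes were higher. PLT1, the most abundant of the 4, did not pass in S (adjusted p = 0.104) or G2M (0.435), and WOX5 was at most at 0.542 CPM. The 3 green leaf genes summed to between 0.955 and 2.88 CPM. CYCB1;1, a mitotic cyclin, was higher in S than in G1 by 3.82 ± 0.15 (log2 fold change ± SE, edgeR adjusted p = 1.88e-08). The marker genes of several root cell types moved between the gates as well. The 4 root cap markers summed to 539 and 461 CPM in G1, 359 and 368 in S but 109 and 100.4 in G2M, and the 4 sieve element markers to 70.3 and 63.0, 24.1 and 16.0, and 13.6 and 12.8 CPM. The sums of the 4 xylem markers were 111 and 147 CPM in G1, 250 and 261 in S and then 293 and 294 in G2M. Of these 4, 3 rose between G1 and G2M, where 23.2% of all genes were higher. The 4 genes listed for endodermis and cortex also summed highest in G2M, with 27.2 and 36.9, 53.8 and 63.0, and 86.6 and 97.7 CPM. Nearly all of it came from SHR and SCR, since MYB36 and CASP1 stayed at or below 1.74 CPM. SHR alone gave 22.5 and 30.7, 45.4 and 55.8, and 68.0 and 72.5 CPM. The sum thus mainly follows that regulator and is not read as a measure of those tissues. The part of such shifts in cell types in the results below was not tested, and in sorted bulk cells fewer cells of a type and less RNA per cell cannot be told apart.

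Compared per length, as TPM (counts scaled to exon length and library size), 5 members made up most of the family at each DNA content. In G1 the level was 49.6 ± 2.74 TPM (mean ± SD, n = 2) for CYCD3;2 and 47.7 ± 1.14 for CYCD3;3, whose libraries overlapped. AT2G22490 (CYCD2;1) followed with 34.4 ± 2.58, and then AT4G34160 (CYCD3;1) with 28.3 ± 4.24 and AT4G37630 (CYCD5;1) with 26.8 ± 1.3, which overlapped too. The other 5 members lay between 1.69 and 9.12 TPM on average. In S the order opened with CYCD3;2 at 80.4 ± 4.35, then AT2G22490 at 51.0 ± 2.23 and CYCD3;3 at 47.9 ± 1.49, and no library of one reached the next. In G2M the leading gene stood at 99.6 ± 2.26 TPM, followed by AT2G22490 with 62.3 ± 7.40 and CYCD3;3 with 46.7 ± 5.35, again without overlap. The last places in G2M were held by AT4G03270 (CYCD6;1) with 1.38 ± 0.12 and AT5G02110 (CYCD7;1) with 0.874 ± 0.681, which overlapped.

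The family's summed level was 210 ± 3.08 TPM in G1, 235 ± 2.62 in S and 252 ± 3.51 in G2M (mean ± SD, n = 2), and the libraries of the gates did not overlap. Its makeup moved more than its sum. The share of CYCD3;2 in the sum was 24.3% and 22.9% in G1, 33.1% and 35.2% in S and then 39.8% and 39.3% in G2M. The share of CYCD3;1 was 14.7% and 12.1% in G1, 8.38% and 6.85% in S and then 4.01% and 4.50% in G2M. For both genes each gate's pair of libraries stood apart from the other pairs, in opposite orders. Such shares do not depend on how libraries are scaled to each other. With 2 libraries against 2 an exact permutation test cannot give a p below 0.33, so they are given as values.

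**Figure D1:**
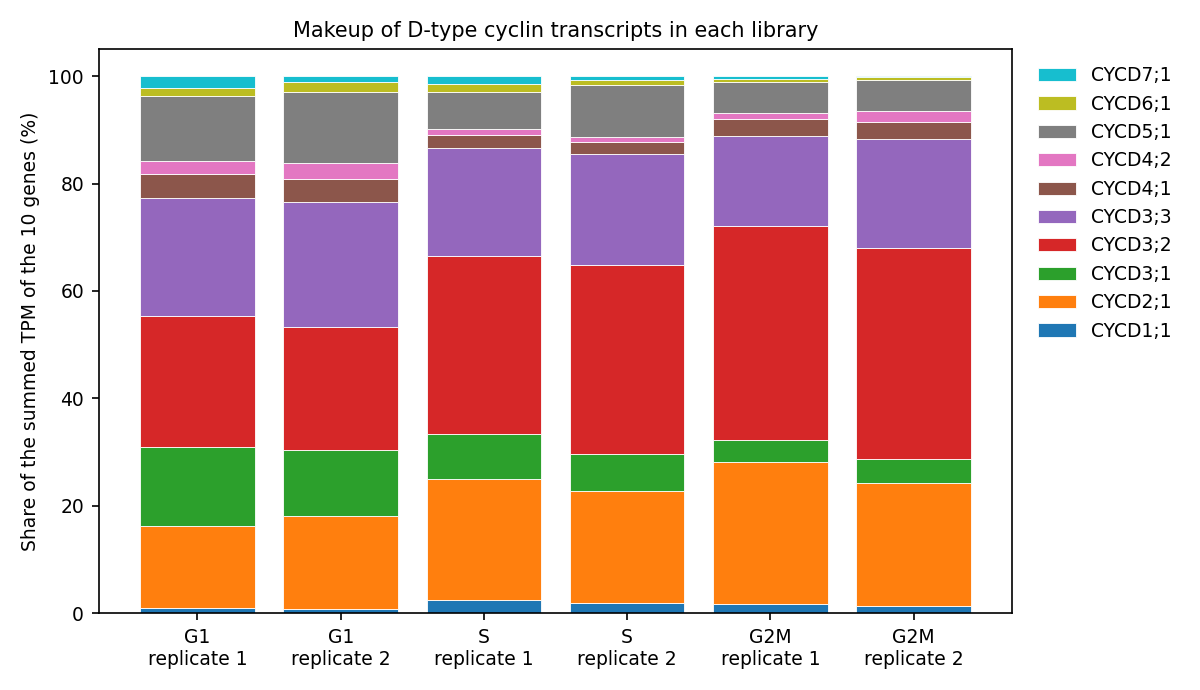
The bars give, for each of the 6 libraries, the share of each D-type cyclin in the summed TPM of the 10 genes (vertical axis, %). The red block of CYCD3;2 grows from 22.9% to 24.3% in G1 to 39.3% to 39.8% in G2M, and the green block of CYCD3;1 shrinks from 12.1% to 14.7% to 4.01% to 4.50%.

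The 3 comparisons ask which transcripts differ between cells with unreplicated DNA, cells between the 2 DNA contents and cells with replicated DNA. From G1 to S 3 members rose and 3 fell (edgeR quasi-likelihood test, adjusted p below 0.05 over all genes), against 21.2% of all genes called, 13.9% higher and 7.28% lower. From S to G2M 2 rose and 1 fell, against 19.6% of all genes, 9.46% higher and 10.1% lower. Between G1 and G2M 3 were higher and 4 lower in G2M, against 40.3% of all genes, 23.2% higher and 17.1% lower. The 2 libraries of the compared gates did not overlap in 7 members for S and G1, 8 for G2M and S and 7 for G2M and G1, where 55.2%, 60% and 78.4% of all genes were so separated. The median log2 fold change of the 10 genes was −0.35, −0.08 and −0.20 in these comparisons, beside 0.08, −0.10 and −0.14 over all genes tested. The 3 comparisons share libraries and are not independent of each other. Upper-quartile scaling moved the median of all genes by −0.18 between S and G1 and by −0.22 between G2M and G1, and the share of calls that were higher went from 65.6% to 44.2% and from 57.5% to 44.0%. Every member called under the main scaling was called in the same direction under that one. With offsets for the GC content and length of genes, 3 members rose and 1 fell from G1 to S, 3 rose and 1 fell from S to G2M, and 4 rose and 1 fell between G1 and G2M. The members' medians were then −0.15, 0.04 and 0.24, so that the last 2 changed sign, beside 0.14, −0.10 and −0.06 over all genes.

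**Figure D2:**
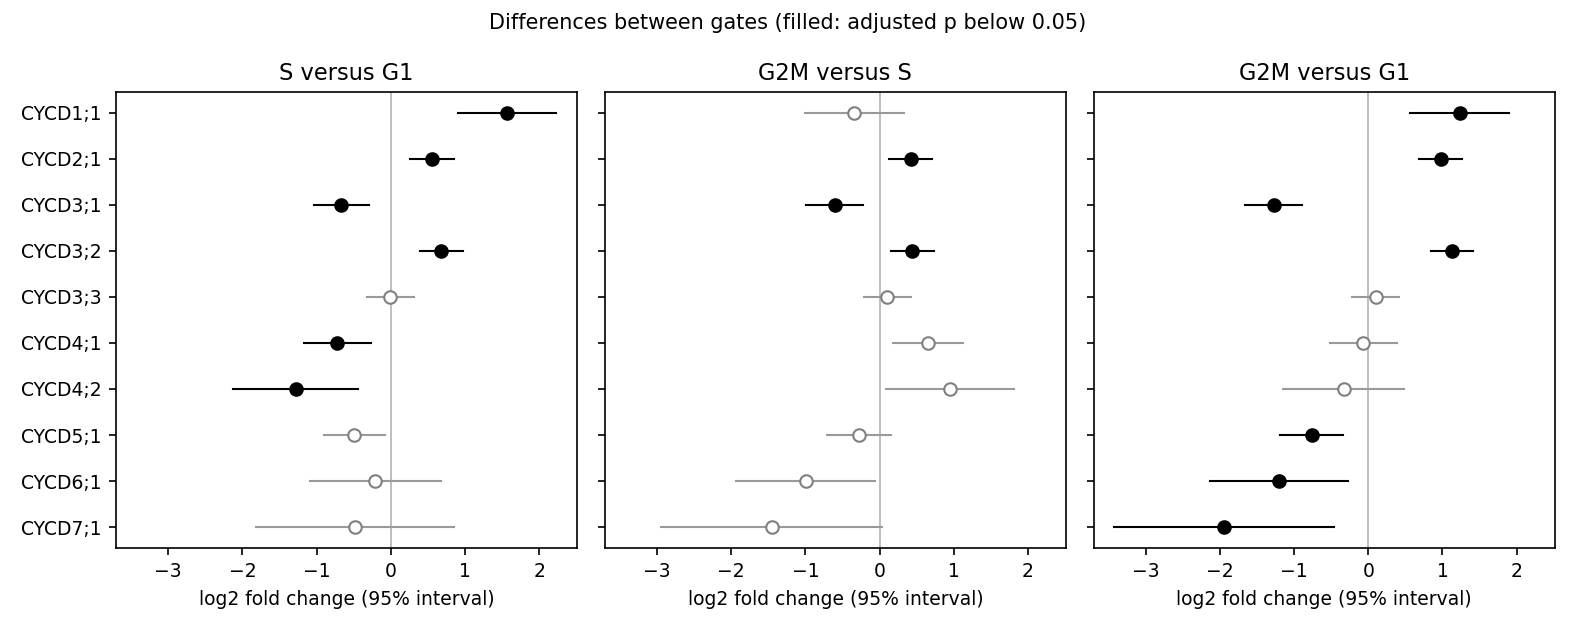
Each point is the log2 fold change of 1 D-type cyclin between 2 gates (horizontal axis) and each bar its 95% interval from the fit to 6 libraries. Filled points passed an adjusted p of 0.05, and the rows of CYCD3;1 and CYCD3;2 lie on opposite sides of 0 in each comparison, at −1.27 and 1.13 for G2M versus G1.

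CYCD3;2 (AT5G67260, chromosome 5, 26836139 to 26839597, plus strand) was the most abundant member and rose at each step. The CYCD3 genes respond to cytokinin and keep leaf cells dividing in place of entering rounds of DNA copying without division. Its level, in CPM after scaling by trimmed means (TMM), was 51.9 and 47.0 in the G1 libraries, 73.3 and 86.1 in S and then 109 and 107 in G2M. No library of one gate reached into another gate's range. The rise was 0.68 ± 0.13 from G1 to S (log2 fold change ± SE, edgeR adjusted p = 0.00266), 0.44 ± 0.13 from S to G2M (adjusted p = 0.0331) and 1.13 ± 0.13 over both steps (adjusted p = 2.23e-05). The step from S to G2M lost its call when either G1 library was left out (adjusted p = 0.0579 and 0.0566 for replicates 1 and 2), when either G2M library was (0.189 and 0.168), and without S replicate 1 (0.126), while the other steps kept theirs in all 15 alternatives.

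CYCD2;1 (AT2G22490, chromosome 2, 9553797 to 9556167, minus strand), a sucrose-responsive cyclin that acts in root meristems and lateral root formation, took the same course. It was measured at 34.0 and 37.0 CPM in G1, 51.7 and 52.9 in S and then 75.1 and 64.8 in G2M. All S libraries lay above all G1 libraries and below all G2M libraries. It rose by 0.56 ± 0.13 from G1 to S (log2 fold change ± SE, edgeR adjusted p = 0.0105), by 0.42 ± 0.14 from S to G2M (adjusted p = 0.0471) and by 0.98 ± 0.14 between G1 and G2M (adjusted p = 9.09e-05). The first step was not called without G1 replicate 1 (adjusted p = 0.114) or G1 replicate 2 (0.0517). The second was not called with thinned libraries (adjusted p = 0.0729) or in the fits that left out replicate 1 or 2 of G1 (0.0759 and 0.0765), replicate 1 or 2 of G2M (0.329 and 0.109) or replicate 1 of S (0.105).

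CYCD1;1 (AT1G70210, chromosome 1, 26439556 to 26443007, plus strand), which helps root meristem cells start dividing during germination, had the largest rise of the family between G1 and S. Its level was 2.88 and 2.15 CPM in G1, 7.93 and 6.98 in S and then 6.73 and 5.19 in G2M. The G1 libraries lay below all others, and those of S lay above those of G2M. The difference from G1 was 1.57 ± 0.30 in S (log2 fold change ± SE, edgeR adjusted p = 0.00290), a call kept in all 15 alternatives. It was 1.23 ± 0.31 in G2M (adjusted p = 0.00625), which no longer passed when G1 replicate 2 (0.0639) or G2M replicate 1 (0.0734) was left out. G2M and S did not pass at −0.34 ± 0.30, with a 95% interval from −1.0 to 0.32. The gene overlaps 144 exon bases of AT1G70209 on the other strand, which had 0 counts in every library.

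CYCD3;1 (AT4G34160, chromosome 4, 16357421 to 16359565, plus strand) is induced by cytokinin and sucrose and is the best known of the CYCD3 genes for driving cells from G1 into S. It went the opposite way to CYCD3;2. Its level was 35.0 and 27.7 CPM in G1, 20.6 and 18.7 in S and then 12.2 and 13.7 in G2M. Here too the gates did not overlap, with G1 highest and G2M lowest. It fell by 0.67 from G1 to S (SE 0.17, log2 scale, edgeR adjusted p = 0.0138), by 0.60 from S to G2M (SE 0.18, adjusted p = 0.0327) and by 1.27 between G1 and G2M (SE 0.18, adjusted p = 8.97e-05).

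The fall between G1 and G2M kept its call in all 15 alternatives. The first step lost it without G1 replicate 1 (adjusted p = 0.192), and the second without S replicate 1 (0.125), G2M replicate 1 (0.269) or G2M replicate 2 (0.120) and with limma-voom (0.0513). A neighbour on the same strand, AT4G34150, overlaps 40 of the 1874 exon bases of this gene and is the more abundant, with 177 and 185 CPM in G1, 107 and 119 in S and then 70.8 and 79.0 in G2M. Its log2 fold changes were −0.68 ± 0.12, −0.59 ± 0.12 and −1.27 ± 0.12 in the same 3 comparisons. Whether reads of the neighbour enter the count of the cyclin was not tested.

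CYCD3;3 (AT3G50070, chromosome 3, 18565134 to 18566834, minus strand), the close relative of CYCD3;2, passed in no comparison. Its level was 40.4 and 40.9 CPM in G1, 38.0 and 43.2 in S and then 39.4 and 47.4 in G2M, and all 3 gates overlapped. The log2 fold change was −0.01 for S versus G1, with a 95% interval from −0.32 to 0.31, 0.11 for G2M versus S (−0.21 to 0.43) and 0.10 for G2M versus G1 (−0.22 to 0.41). The last interval excludes the 1.13 of its relative, and none of them shows that the level was constant. With GC and length offsets it passed between G2M and G1, at 0.37 (edgeR adjusted p = 0.0415).

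Ratios taken inside a library show the split of the CYCD3 genes without any scaling between libraries. CYCD3;2 stood at 1.65 and 1.89 times the TPM of CYCD3;1 in the G1 libraries, at 3.96 and 5.14 times in S, and at 9.92 and 8.73 times in G2M. Against CYCD3;3 it stood at 1.10 and 0.983 times in G1, 1.65 and 1.70 times in S and then 2.36 and 1.94 times in G2M. The ratio of CYCD3;3 to CYCD3;1 was 1.50 and 1.92 in G1, 2.40 and 3.01 in S and then 4.21 and 4.50 in G2M. In each of these ratios the pairs of libraries of the 3 gates followed each other without overlap.

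**Figure D3:**
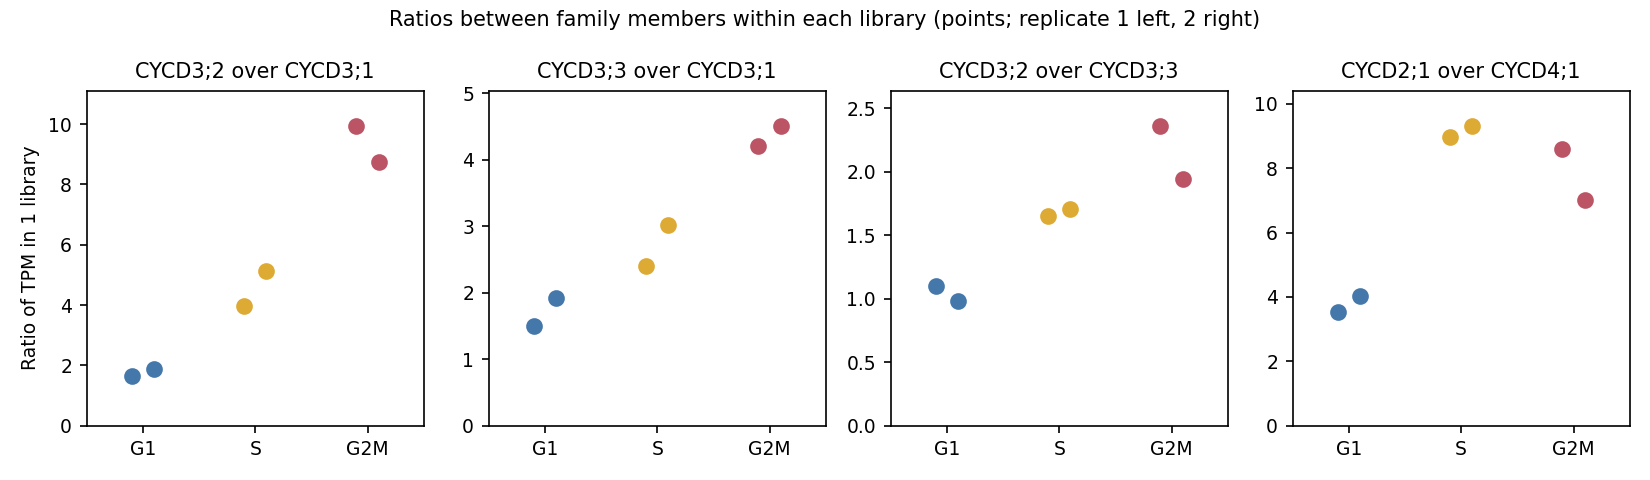
Each point is the ratio of the TPM of 2 D-type cyclins within 1 library (vertical axis, from 0), by gate. The first panel climbs from 1.65 and 1.89 in G1 to 9.92 and 8.73 in G2M, and in the last panel the ratio of CYCD2;1 to CYCD4;1 is lowest in G1, at 3.53 and 4.03.

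The promoters of the members were searched for AACGG, the core of the element through which MYB3R factors act on mitotic genes. Both strands were read from 250 bases before to 50 after the annotated start. The motif was found in 1 of 10 members, the CYCD3 gene that fell, and in 24.7% of 27443 protein-coding genes. The 250 bases before its start are printed with the match in capitals because it is the member with a match.
CYCD3;1: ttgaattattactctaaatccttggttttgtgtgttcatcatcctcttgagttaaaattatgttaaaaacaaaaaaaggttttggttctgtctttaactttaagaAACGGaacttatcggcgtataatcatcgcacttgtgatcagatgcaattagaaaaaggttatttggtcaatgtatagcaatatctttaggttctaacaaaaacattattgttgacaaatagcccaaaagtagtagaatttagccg
They are read 5′ to 3′ in the direction of the gene, at chr4:16357171-16357420 (plus strand), RefSeq build TAIR10.1. The match begins 145 bases before the start on the gene's strand. AT4G34150, the neighbour on the same strand that overlaps 40 exon bases of CYCD3;1, may cover these 250 bases in part or in whole. The match may then lie inside that gene, so it is not read as part of a promoter of CYCD3;1. A match is a description of the letters and not of a bound factor.

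The 2 CYCD4 genes were lowest in the S gate. CYCD4;1 (AT5G65420, chromosome 5, 26141470 to 26144020, minus strand) promotes divisions that found lateral roots, and CYCD4;2 (AT5G10440, chromosome 5, 3280487 to 3282553, minus strand) acts in the stomatal lineage of the hypocotyl. The former was measured at 11.2 and 10.7 CPM in G1, 6.67 and 6.59 in S and then 10.1 and 10.7 in G2M. The latter was measured at 4.22 and 4.85 CPM in G1, 1.79 and 1.96 in S and then 2.67 and 4.46 in G2M. For both genes the S libraries lay below all others, while those of G1 and G2M overlapped.

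From G1 to S the former fell by 0.72 (SE 0.21, log2 scale, edgeR adjusted p = 0.0276) and the latter by 1.28 (SE 0.39, adjusted p = 0.0324). From S to G2M neither passed, at 0.65 ± 0.22 (adjusted p = 0.0502) and 0.95 ± 0.39 (adjusted p = 0.107), but the first passed in 7 of 15 alternatives, among them DESeq2 (0.0237) and limma-voom (0.0396). Between G1 and G2M the changes were −0.06 (95% interval −0.52 to 0.39) and −0.33 (−1.15 to 0.49). The fall to S was lost for both genes with GC and length offsets (adjusted p = 0.100 and 0.0925) and when G1 replicate 1 (0.167 and 0.115), G1 replicate 2 (0.116 and 0.197) or G2M replicate 2 (0.0638 and 0.0538) was left out. It was lost as well for the former without G2M replicate 1 (0.0655) and for the latter without S replicate 1 (0.0653).

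CYCD5;1 (AT4G37630, chromosome 4, 17679168 to 17681264, plus strand), a gene linked to natural variation in endoreduplication, was highest in G1. Its level was 28.8 and 30.2 CPM in G1, 17.0 and 25.9 in S and then 17.4 and 17.4 in G2M. The G1 libraries lay above all others, and the S libraries spread on both sides of G2M. It fell by 0.76 between G1 and G2M (SE 0.19, log2 scale, edgeR adjusted p = 0.00697). That call was lost with GC and length offsets (−0.46, adjusted p = 0.0941) and when G2M replicate 1 (0.0632) or G2M replicate 2 (0.0501) was left out. S versus G1 missed the threshold at −0.49 ± 0.19 (adjusted p = 0.0934). Leaving out S replicate 2 brought it to −0.83 (0.00277), and leaving out S replicate 1 to −0.19 (0.423). It passed too with DESeq2 (0.0399), limma-voom (0.00182) and upper-quartile factors (0.0149). G2M versus S did not pass at −0.27 ± 0.20 (adjusted p = 0.342), and was −0.57 without S replicate 1 (0.0409) and 0.08 without S replicate 2.

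The 2 least abundant members in G2M are known for single divisions. CYCD6;1 (AT4G03270, chromosome 4, 1431844 to 1433861, minus strand) drives the division that separates cortex from endodermis, and it is switched on there by SHORT-ROOT (SHR) and SCARECROW (SCR). Its level was 2.99 and 3.68 CPM in G1, 3.32 and 2.35 in S and then 1.33 and 1.54 in G2M, where both libraries lay below all others. It fell by 1.20 between G1 and G2M (SE 0.43, log2 scale, edgeR adjusted p = 0.0391). G2M versus S missed the threshold at −1.0 ± 0.43 (adjusted p = 0.120), though not when S replicate 2 was left out (0.0414), and S versus G1 stood at −0.21 ± 0.41. The call between G1 and G2M was lost with limma-voom (adjusted p = 0.0846), without a filter (0.0506), with GC and length offsets (0.102), and when replicate 1 or 2 of G1 (0.0990 and 0.210) or replicate 1 or 2 of G2M (0.201 and 0.135) was left out.

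The regulators of this gene moved the other way. SHR was measured at 22.5 and 30.7 CPM in G1, 45.4 and 55.8 in S and then 68.0 and 72.5 in G2M, and SCR at 4.33 and 5.42, 7.65 and 6.04, and 16.8 and 22.1 CPM. From G1 to G2M SHR rose by 1.40 ± 0.17 (edgeR adjusted p = 3.05e-05) and SCR by 2.01 ± 0.24 (adjusted p = 2.53e-05). Of the 1610 exon bases of the cyclin 393 overlap AT4G03260 on the other strand, and the strand setting of the counting is not given in the sources used here. AT4G03260 stood at 26.4 and 26.7 CPM in G1 and 45.2 and 42.3 in G2M, where the cyclin was lower. Whether reads of the shared bases affect the count of the cyclin was not tested. SHR and SCR are also in the list for endodermis and cortex, and their part in this result was not tested.

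CYCD7;1 (AT5G02110, chromosome 5, 416917 to 418666, plus strand) acts in leaves, at the last division of the stomatal lineage. Its raw counts were 481 and 106 in the G1 libraries, 533 and 16 in those of S and 17 and 10 in those of G2M, which is 3.68 and 1.61, 2.41 and 1.25, and 1.13 and 0.335 CPM. The G2M libraries lay below all others, and those of G1 and S overlapped. It fell by 1.94 between G1 and G2M (SE 0.68, log2 scale, edgeR adjusted p = 0.0382), which did not pass when G1 replicate 1 (−1.19, adjusted p = 0.350) or G2M replicate 2 (−1.23, 0.276) was left out or with GC and length offsets (0.0857), and which was −2.96 without G2M replicate 1. The other steps did not pass, at −0.48 ± 0.62 from G1 to S and −1.46 ± 0.69 from S to G2M. The stomatal regulators SPCH, MUTE and FAMA summed to 7.29 and 7.41 CPM in G1, 11.1 and 5.18 in S and then 3.0 and 3.69 in G2M. Most of it came from FAMA, with means of 5.23, 6.34 and 2.69 CPM. SPCH and MUTE averaged at most 1.28 and 0.960 CPM in a gate and passed in no comparison. The sum is not read as a measure of that lineage, and the part of these genes in the result for CYCD7;1 was not tested.

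**Figure D4:**
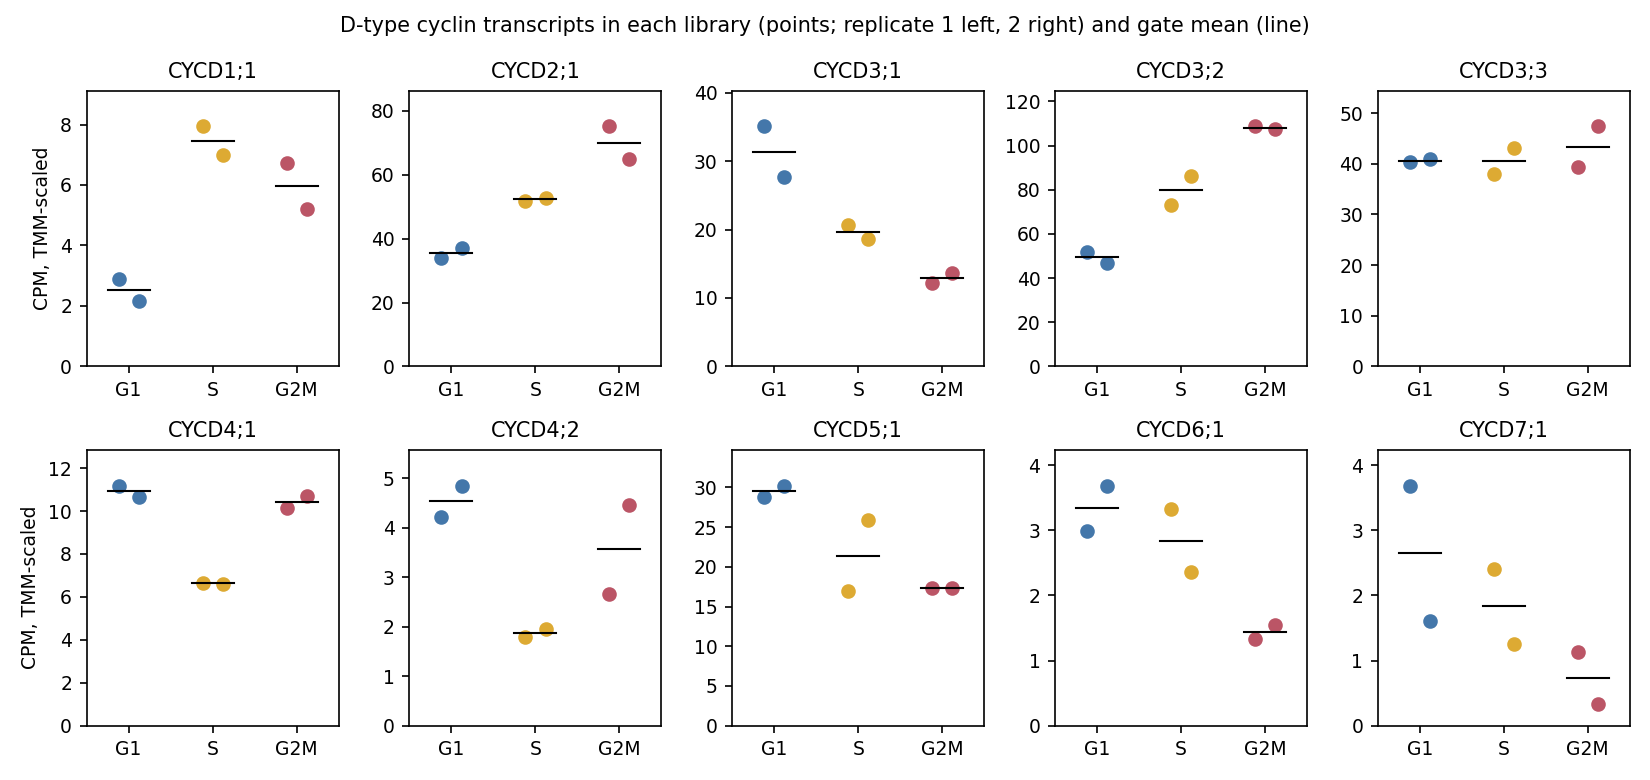
Each panel gives the CPM after TMM scaling of 1 D-type cyclin (vertical axis, from 0) in the 2 libraries of each gate, with the gate mean as a line. CYCD2;1 and CYCD3;2 climb from G1 to G2M, CYCD3;1 descends from 31.4 to 12.9 CPM on average, and the CYCD4 genes dip in S to 6.63 and 1.88 CPM.

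The other genes of the pathway were taken from lists by role. The first list held the kinase CDKA;1, its CKS partners, CDK-activating kinases and the cyclin AT5G27620 (CYCH;1). Of these 8 genes 4 rose from G1 to S, 4 rose from S to G2M and 6 were higher in G2M than in G1, and 0 fell. Over all genes 13.9%, 9.46% and 23.2% were higher and 7.28%, 10.1% and 17.1% lower. The 4 that rose from G1 to S were CKS2 (2.17 ± 0.18, log2 fold change ± SE) and the CDK-activating kinases AT1G18040 (0.88 ± 0.14), AT4G28980 (0.74 ± 0.15) and AT1G73690 (1.22 ± 0.27). CDKA;1 itself did not pass from G1 to S at −0.23 ± 0.14 and rose by 0.49 ± 0.14 from S to G2M (edgeR adjusted p = 0.0316), as did AT1G73690 (1.05 ± 0.27), AT1G18040 (0.50 ± 0.15) and the cyclin AT5G27620 (0.62 ± 0.19). Over both steps CKS2 had 1.94 ± 0.18 and AT1G18040 had 1.38 ± 0.15.

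Among 10 inhibitors of cyclin-dependent kinases, the KRP genes with SIM and 2 of its relatives, 2 fell from G1 to S, 1 fell from S to G2M and 3 fell between G1 and G2M, and 0 rose, against the shares of all genes just given. From G1 to S, KRP3 fell by 1.39 (SE 0.23) and KRP5 by 0.95 (SE 0.22). From S to G2M, KRP7 fell by 0.94 (SE 0.18), and KRP6 was at −0.58 ± 0.20 (edgeR adjusted p = 0.0591). Between G1 and G2M, KRP6 fell by 0.96 (SE 0.20), KRP3 by 0.78 (SE 0.23) and KRP7 by 0.65 (SE 0.18).

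Downstream of the cyclins, RBR1 was lowest in the S gate. It was measured at 86.0 and 76.7 CPM in G1, 40.5 and 52.5 in S and then 92.3 and 94.2 in G2M. It fell by 0.82 from G1 to S (SE 0.15, edgeR adjusted p = 0.00163) and rose by 1.02 ± 0.15 from S to G2M (adjusted p = 6.21e-04). Among the 9 RBR1, E2F, DP and DEL genes, DEL3, an E2F-like repressor, was the other gene that changed from G1 to S and rose by 1.35 ± 0.17, and E2FB fell from S to G2M by 0.61 (SE 0.17). Between G1 and G2M, DEL3 (0.83 ± 0.17), DPA (0.48 ± 0.16) and DEL2 (1.10 ± 0.40) rose and E2FB fell by 0.59 (SE 0.17). Of the 9 genes 1 rose and 1 fell at each of the first 2 steps, and 3 rose and 1 fell over both. Over all genes 13.9%, 9.46% and 23.2% were higher and 7.28%, 10.1% and 17.1% lower. The counts are not read as a result about the list.

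Upstream, 7 regulators were listed, of which ARR1 and ANT passed in no comparison. From G1 to S 2 rose and 0 fell, from S to G2M 1 rose and 1 fell, and over both steps 3 rose and 1 fell. Over all genes 13.9%, 9.46% and 23.2% were higher and 7.28%, 10.1% and 17.1% lower. The counts are not read as a result about the list. From G1 to S, SHR rose by 0.92 ± 0.17 and the cytokinin response regulator ARR12 by 0.52 ± 0.14. From S to G2M, SCR rose by 1.49 ± 0.24 and the cytokinin response regulator ARR10 fell by 0.81 (SE 0.15). Between G1 and G2M, JKD rose by 0.73 ± 0.25 beside SHR and SCR, and ARR10 fell by 0.61 (SE 0.15).

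The cyclins of later phases are given for comparison, and their counts stand beside 13.9% of all genes higher and 7.28% lower from G1 to S, 9.46% and 10.1% from S to G2M, and 23.2% and 17.1% between G1 and G2M. Of 11 B-type cyclins, which act in mitosis, 10 rose from G1 to S and 0 fell, with a median log2 fold change of 3.76 and with AT4G37490 (3.82 ± 0.15) and AT2G26760 (3.99 ± 0.17) among them. From S to G2M AT2G26760 (0.75 ± 0.15), AT1G76310 (0.72 ± 0.15) and AT1G20610 (0.61 ± 0.16) rose, and AT1G34460 fell by 1.90 (SE 0.39), with a median of 0.51. Over both steps 10 B-type cyclins rose, among them AT2G26760 (4.75 ± 0.17) and AT1G76310 (4.82 ± 0.18), AT1G34460 fell and the median was 4.16. Of 10 A-type cyclins, which act in S and G2, 4 rose from G1 to S and 2 fell (median 0.51), with the smallest p for AT1G44110 (4.88 ± 0.17) and AT5G25380 (2.1 ± 0.24). From S to G2M AT1G47210 rose by 1.23 ± 0.31, AT1G80370 fell by 0.50 (SE 0.15) and AT1G15570 fell by 0.44 (SE 0.14), with a median of −0.23. Over both steps 5 A-type cyclins rose and 0 fell (median 0.31), and the 5 were AT1G44110 (4.51 ± 0.16), AT5G11300 (1.90 ± 0.29), AT5G25380 (1.51 ± 0.24), AT1G80370 (0.70 ± 0.15) and AT1G47230 (0.69 ± 0.15). By these medians most of the B-type rise lay between G1 and S. Whether the S gate also held cells of later phases was not tested. No test of the difference between the cyclin classes was made.

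Likeness of patterns was measured as Pearson's r of log2 CPM over the 6 libraries among genes with a symbol and a mean of at least 10 CPM, of which 5455 or 5454 were compared with each member. The libraries form 3 pairs, so high values are common and are given as descriptions. The closest gene to CYCD3;2 was HSP81-3, a chaperone of the HSP90 family (r = 0.999), and the closest to CYCD2;1 was IBR3 (0.998). CYCD3;1 was closest to UBC32, a ubiquitin-conjugating enzyme (0.997), and EXPA14, an expansin (0.995). The nearest to AT5G65420 were DAD2 (0.993), POLA3, a primase subunit (0.989), and FH6 (0.986). Those to AT5G10440 were CYCA3;1 (0.997), ADF4 (0.991) and ORC4, a subunit of the origin recognition complex (0.988). AT4G03270 was closest to TAA1, an enzyme of auxin synthesis (0.991), and APL, a regulator of phloem identity that is also among the sieve element markers (0.988). AT1G70210 was closest to SOS1, a sodium transporter (0.998), and AT4G37630 to LSF2 (0.993). The lowest first places were those of AT3G50070, with NCBP at 0.961, and AT5G02110, with CRK11 at 0.956.

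Within the family the same measure over 6 libraries was 0.967 for CYCD2;1 with CYCD3;2 and 0.913 for the CYCD4 pair. It was −0.954 for CYCD3;1 with CYCD3;2 and −0.991 for CYCD3;1 with CYCD2;1. For CYCD3;2 and CYCD3;3, whose proteins are the closest pair after the CYCD4 proteins, it was 0.383.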

How the data were processed

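The values used are whole-number read counts for each gene in 6 libraries, which the authors deposited without normalization, as the labels and the values themselves show. Trimmomatic 0.39, HISAT2 2.2.1, featureCounts and build TAIR10 are named in the submitters' processing notes. For the strand setting and multi-mapping reads, nothing is given in the sources used here. Per the labels' protocols, the cDNA came from a SMART-Seq v4 kit. A second deposited table was not used here. For comparison between genes, TPM was computed with exon-union lengths of RefSeq TAIR10.1 for 32548 genes, without 285 organelle genes.

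The test was that of edgeR 4.0.16, run in R 4.3.3 (TMM factors, filterByExpr, quasi-likelihood F test, 1 fit of the 3 gates to 6 libraries, Benjamini-Hochberg adjustment over 25364 genes, threshold 0.05). The SE is the log2 fold change divided by the square root of F. The test was tried on simulated data first. Alternatives were upper-quartile and RLE factors, DESeq2 1.42.0, limma-voom (limma 3.58.1), no filter, no organelle genes, thinned libraries, GC and length offsets, each library left out, and a replicate block. With 1 library left out, the lone library of a gate is assumed to vary like the other gates. The pairs of libraries differed by more than sampling noise (chi-square per degree of freedom 28.6, 15.0 and 6.86 in G1, S and G2M), so none was taken for a copy.

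The members and the lists were chosen with earlier results of these data known. All 10 members are named. From each list the text names the 2 genes with the smallest adjusted p and all called genes where these were 5 or fewer. Coding and promoter sequences were read from the RefSeq genome, and proteins were aligned with Biopython 1.88 (BLOSUM62, global). One sequence result is not reported here.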

Additional observations from a re-analysis of the deposited data

How the results depend on the processing

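Leaving out 1 library at a time gave 2 to 7 called members for S versus G1 (6 with all libraries), 0 to 5 for G2M versus S (3 with all) and 4 to 7 for G2M versus G1 (7 with all). Over all genes these fits called 2753 to 6276, 1472 to 9378 and 6679 to 12720 genes, against 5373, 4960 and 10226. The edgeR count of 0 members for G2M versus S came without G2M replicate 1, where 4 had an unadjusted p below 0.05, and without G2M replicate 2, where 3 did. No other tool was run on those subsets, and fewer samples enter them. With limma-voom 9779 genes were called for S versus G1, and the cause was not tested.

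With GC and length offsets 4, 4 and 5 members were called in these comparisons. The fit with the replicate block called 6, 2 and 6 members in the same order, and CYCD2;1 for G2M versus S (adjusted p = 0.0671) and CYCD6;1 for G2M versus G1 (0.0600) were not called in it. Replicate numbers are not said to mark a shared day, and deviations of libraries with the same number correlated at −0.05, 0.03 and −0.06 between gates, so they were treated as names only.

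Of 450 values of single members under the alternatives 380 kept direction and call, 45 lost the call, 14 gained it and 11 changed sign, none of these a call that passed with all libraries. For S versus G1 the sign changed for CYCD3;3 with thinned libraries (0.043) and GC and length offsets (0.18) and for CYCD6;1 with limma-voom (0.012). With 1 library left out, CYCD3;3 ranged from −0.125 to 0.087 and CYCD7;1 from −1.09 to 0.22 in that comparison, CYCD3;3 from −0.033 to 0.26 and CYCD5;1 from −0.57 to 0.084 in G2M versus S, and CYCD3;3 from −0.046 to 0.24 in G2M versus G1. For G2M versus G1 it changed for CYCD3;3 under upper-quartile scaling (−0.12), and for CYCD4;1 (0.43) and CYCD4;2 (0.11) under GC and length offsets. The cause was not tested.

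The mean share of CYCD3;1 in the family was 17.6%, 11.6% and 7.04% in G1, S and G2M when the most abundant member was left out of the sum, which raises any share by construction, and 4.73% in G2M on CPM. Depth limits the members with few counts, of which CYCD7;1 had 10 to 17 in 3 libraries.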
